A study of Mus musculus with 12 samples.

Results

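Tuft cells are rare chemosensory cells of the intestinal epithelium. They arise under the transcription factor Pou2f3, sense luminal metabolites through a taste-type pathway that ends at the cation channel Trpm5, and release the cytokine Il25, which acts on type 2 immune cells through the receptor subunit Il17rb, as well as lipid mediators and acetylcholine. A set of 10 genes by which tuft cells are commonly recognised was followed here in whole-colon RNA, chosen by name: Dclk1, Trpm5, Pou2f3, Il25, Gfi1b, Sh2d6, Avil, Rgs13, Gng13 and Il17rb. All 10 were found among the 54532 genes of the table, each in 1 row, and all 10 were among the 24102 genes tested.

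The colon of C57BL/6N mice was profiled by RNA sequencing, with 12 libraries in 4 groups of 3. Mice of both genotypes have a floxed Tmem173, the gene of STING. In Tmem173fl/fl mice (WT in the labels) no Cre is present, and Tmem173iΔmye mice (CRE in the labels) have Lyz2-Cre ert2, a tamoxifen-inducible recombinase under a myeloid promoter. Every mouse had 5 tamoxifen injections. The untreated groups had no dextran sulfate sodium (DSS), a polymer that injures the colon epithelium. The colitic groups drank it for 7 days and then water for 1 day. Mice of all 4 groups were 6 to 8 weeks old when DSS began in the colitic groups. Where 4 values or sets of values follow each other, the 2 untreated groups come first, Tmem173fl/fl before Tmem173iΔmye, and then the 2 colitic groups. The colitic Tmem173iΔmye libraries are numbered 1, 2 and 5.

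Library totals ran from 13823237 to 18718915 counts. Tmem173 itself stood at 20.6 ± 5.46, 17.7 ± 3.40, 41.4 ± 3.30 and 34.2 ± 12.3 CPM (mean ± SD, n = 3), where CPM is the depth-normalised count after scaling by the trimmed mean of M-values (TMM), so no loss with genotype was detectable in whole tissue on this scale (log2 difference -0.21 ± 0.22 (SE) untreated and -0.28 ± 0.26 colitic, edgeR adjusted p = 1 and 0.602). Against the summed counts of 12 epithelial markers, Tmem173 was lower in colitic Tmem173iΔmye mice (-1.14 ± 0.38, adjusted p = 0.04019), with groups that overlapped and a median of -0.85 over all genes. The first principal component, with 56.0% of the variance, placed colitic Tmem173iΔmye replicate 5 at -22.9, on the side of the untreated libraries (-61.5 to -41.8) and not of the other 2 of its group (11.6 and 53.4). Replicate 3 of both untreated groups and colitic Tmem173iΔmye replicate 5 held 1225 to 1839 CPM of Xist, a transcript of the inactive X chromosome, against at most 0.545 CPM in the other 9 libraries. The labels give no sex.

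Most of these genes sit in low ranges of the colon transcriptome. Compared per length, as FPKM, in untreated Tmem173fl/fl colon, Sh2d6, an SH2-domain adaptor, was highest at 3.6 ± 0.40 (SD, n = 3). Rgs13, a regulator of G-protein signalling, followed at 2.0 ± 0.688, then Trpm5 at 1.99 ± 0.464, the actin-binding protein advillin (Avil) at 1.92 ± 0.793 and the kinase Dclk1 at 1.62 ± 0.287. Sh2d6 was above every value of the next gene. The ranges of Rgs13, Trpm5, Avil and Dclk1 overlapped, and Dclk1 also overlapped Il17rb at 1.19 ± 0.152. Pou2f3 at 0.471 ± 0.0682 was below every Il17rb value and overlapped the transcriptional repressor Gfi1b at 0.322 ± 0.102. In colitic Tmem173fl/fl colon the order was Sh2d6 at 3.29 ± 1.5, Dclk1 at 3.08 ± 0.272 and Avil at 2.86 ± 0.520, whose ranges overlapped, then Trpm5 at 0.904 ± 0.209, apart from Avil, and Il17rb at 0.576 ± 0.0312, which overlapped Rgs13 at 0.467 ± 0.150. FPKM levels of Dclk1 rest on a gene length of 15296 bases, the longest of the 10.

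Il25 and Gng13 were near the limit of detection. Il25 had 0, 3 and 0 counts in untreated Tmem173fl/fl, 0, 2 and 1 in untreated Tmem173iΔmye, 1, 2 and 0 in colitic Tmem173fl/fl and 0, 2 and 0 in colitic Tmem173iΔmye colon. No library had more than 3 counts, taken here as the floor, which corresponds to 0.142 to 0.227 CPM. Gng13, a gamma subunit of taste-type G proteins, had 0, 5 and 0, then 0, 2 and 1, then 4, 1 and 0, then 0, 1 and 0 counts. No fold change is given for either gene, and differences between groups were not detectable at this depth. Both are short genes, of 1064 and 773 bases, and passed the filter on low values with FPKM of at least 0.1 in 3 libraries each. The 8 more abundant genes each had over 5 counts in at least 1 library.

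All 10 genes are protein coding. On GRCm38 they lie at chr3:55242364-55539068 (Dclk1, plus strand), chr7:143069153-143094642 (Trpm5, minus), chr9:43123939-43210369 (Pou2f3, minus), chr14:54932695-54935837 (Il25, plus), chr2:28609450-28621982 (Gfi1b, minus), chr6:72513644-72521634 (Sh2d6, minus), chr10:127000709-127020994 (Avil, plus), chr1:144138654-144177372 (Rgs13, minus), chr17:25717171-25719406 (Gng13, plus) and chr14:29996135-30008896 (Il17rb, minus). Exons of Trpm5, Avil, Gng13 and Il17rb share 220, 165, 399 and 141 bases with the opposite-strand genes Tssc4, Tsfm, Chtf18 and Actr8. These partners had more counts over the 12 libraries: 3388 against 1567 of Trpm5, 3253 against 1502 of Avil, 1545 against 14 of Gng13 and 5455 against 638 of Il17rb. Those of Dclk1 share 87 and 27 bases with the opposite-strand genes Gm42609 and Gm21954, which had 15 and 0 counts over the 12 libraries against 6224 of Dclk1. Whether counting used strand is not given in the sources used here, so reads in these stretches may not be told apart from those of the partner. The part this plays in the counts of Trpm5, Avil, Gng13 and Il17rb was not tested.

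The 250 bases before the start are shown for 5 genes that the results below turn on. Trpm5 and Rgs13 fell with DSS in Tmem173fl/fl mice and Sh2d6 did not pass the test there, and Dclk1 and Avil had their highest group means in colitic Tmem173fl/fl colon. Dclk1 has 2 annotated starts, and its counts do not separate them. For Sh2d6 the start used lies within the span of the counted gene given above, so the stretch shown is inside that span. The sequences are from RefSeq on GRCm38.p6, 5′ to 3′ on the strand of the gene, and capitals mark ATGCAAA or its reverse complement, the first 7 letters of the octamer ATGCAAAT that POU-family factors such as Pou2f3 are known to bind.
Trpm5 (chr7:143094643-143094892, minus strand): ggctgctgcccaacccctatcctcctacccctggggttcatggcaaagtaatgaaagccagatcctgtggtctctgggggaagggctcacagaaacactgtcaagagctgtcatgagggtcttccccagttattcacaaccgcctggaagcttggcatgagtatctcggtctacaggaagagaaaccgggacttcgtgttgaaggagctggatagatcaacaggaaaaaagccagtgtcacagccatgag
Rgs13 (chr1:144177373-144177622, minus strand): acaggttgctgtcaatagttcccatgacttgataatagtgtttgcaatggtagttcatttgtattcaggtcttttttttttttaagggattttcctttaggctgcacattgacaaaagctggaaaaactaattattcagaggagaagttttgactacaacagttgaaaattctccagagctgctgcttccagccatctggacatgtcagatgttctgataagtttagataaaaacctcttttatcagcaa
Sh2d6 (chr6:72520037-72520286, minus strand): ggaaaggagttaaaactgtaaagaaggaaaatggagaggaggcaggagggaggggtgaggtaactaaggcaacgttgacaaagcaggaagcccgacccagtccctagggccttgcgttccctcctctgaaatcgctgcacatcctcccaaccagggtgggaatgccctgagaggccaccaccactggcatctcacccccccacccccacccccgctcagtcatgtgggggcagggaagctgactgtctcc
Dclk1, upstream start (chr3:55242114-55242363, plus strand): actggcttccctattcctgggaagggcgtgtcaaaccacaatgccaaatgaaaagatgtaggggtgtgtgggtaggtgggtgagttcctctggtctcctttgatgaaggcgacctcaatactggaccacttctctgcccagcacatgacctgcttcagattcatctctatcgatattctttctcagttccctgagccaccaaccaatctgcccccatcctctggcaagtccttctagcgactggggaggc
Dclk1, downstream start (chr3:55461478-55461727, plus strand): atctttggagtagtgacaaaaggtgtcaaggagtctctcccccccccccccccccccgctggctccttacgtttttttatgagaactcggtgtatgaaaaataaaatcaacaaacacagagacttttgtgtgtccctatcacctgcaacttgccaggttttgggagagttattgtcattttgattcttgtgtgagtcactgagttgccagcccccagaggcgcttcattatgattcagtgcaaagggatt
Avil (chr10:127000459-127000708, plus strand): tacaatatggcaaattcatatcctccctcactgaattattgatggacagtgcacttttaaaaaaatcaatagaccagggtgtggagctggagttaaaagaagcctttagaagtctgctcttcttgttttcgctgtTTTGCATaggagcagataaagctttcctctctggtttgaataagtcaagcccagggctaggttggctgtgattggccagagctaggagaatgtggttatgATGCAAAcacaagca

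The table of promoters held 8 of the 10 genes, with 10 promoters of 300 bases (250 before and 50 after the start), and no entry for Pou2f3 or Il25. ATGCAAAT was searched on both strands. It was in 0 of these 10 promoters and in 1.74% of 32851 promoters of all genes. The overlapping 7-letter part ATGCAAA was in 1 of the 10, Avil, at positions -115 and -15 from the start, against 4.63% of all promoters. The other 7-letter part, TGCAAAT, was in 0 of the 10 and in 4.02% of all promoters. Base composition differed widely: the 250 bases before the start were 36.0% G or C with 0 CG pairs in Rgs13 and 72.0% with 27 CG pairs in Il17rb.

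The first comparison asks how tuft cell genes stand in DSS colitis with STING intact. In Tmem173fl/fl mice Rgs13, Trpm5 and Il17rb fell, Dclk1 was higher, and Sh2d6, Avil, Pou2f3 and Gfi1b did not pass the test. Thus 3 of 10 genes were called lower and 0 higher, where a call needs an adjusted p (edgeR) under 0.05 and a log2 fold change of 1 or more in either direction. Over all genes tested 7.61% were called lower, 14.9% higher and 22.5% either way. The median log2 fold change was -0.23 over the 10 genes, -0.47 without Il25 and Gng13, and 0.03 over all genes tested. In whole tissue, fewer tuft cells and less RNA per tuft cell cannot be told apart. These values are relative to RNA of the whole tissue, so they also depend on its shares of epithelium and other cells. Levels per epithelial count are given below.

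**Figure D1:**
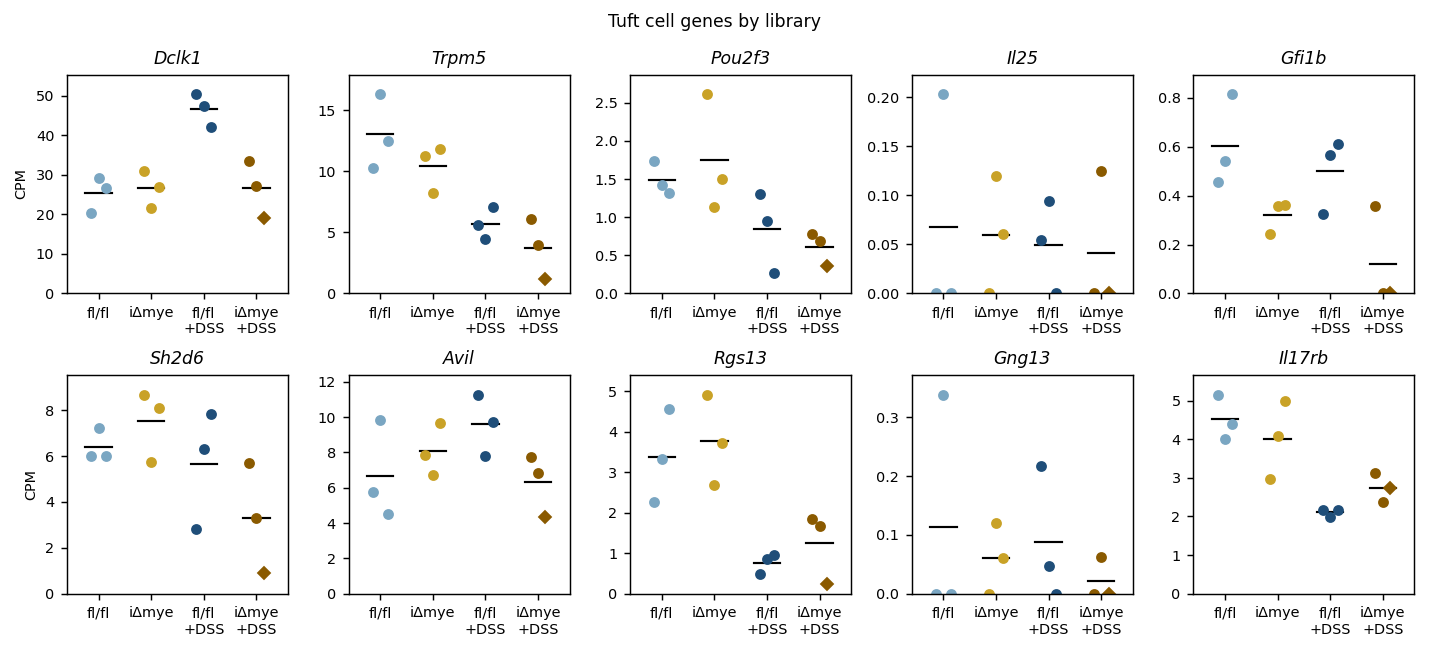
Level (CPM, linear axis from 0, own scale in each panel) of each of the 10 genes in the 12 libraries. Points are libraries, the bar is the group mean of 3 libraries, and the diamond is colitic Tmem173iΔmye replicate 5. Dclk1 is highest in the 3 colitic Tmem173fl/fl libraries, Trpm5 and Rgs13 are low in both colitic groups, and replicate 5 is the lowest point for most genes.

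Rgs13 was at 2.27, 3.32 and 4.57 CPM in untreated and 0.488, 0.852 and 0.953 CPM in colitic Tmem173fl/fl libraries. The groups did not overlap, and the log2 fold change was -2.08 ± 0.41 (SE; adjusted p = 0.003038), a 4.23-fold drop that was called in 6 of 6 fits leaving out 1 library. The colitic values rest on 9, 18 and 14 counts.

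Trpm5, the channel that depolarises tuft cells, was at 10.3, 16.3 and 12.5 CPM in untreated and 5.58, 4.50 and 7.08 CPM in colitic libraries. Every colitic value was below every untreated one, with a log2 fold change of -1.12 ± 0.25 (adjusted p = 0.006009). The size is close to the threshold: the fold change was -0.94 without untreated replicate 2 and -1.0 without colitic replicate 2, and neither was called.

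Il17rb, the receptor subunit for Il25, was at 5.15, 3.99 and 4.38 CPM in untreated and 2.17, 1.99 and 2.18 CPM in colitic libraries. The groups were apart (log2 fold change -1.02 ± 0.27, adjusted p = 0.01418), and the gene was called in 5 of 6 fits leaving out 1 library, the exception being -0.92 without untreated replicate 1. Type 2 immune cells respond to Il25 through this subunit, and their part in its level was not tested.

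Dclk1 went the other way. It was at 20.5, 29.1 and 26.6 CPM in untreated and 50.4, 47.6 and 42.0 CPM in colitic libraries, again with no overlap. The log2 fold change was 0.95 ± 0.16 (adjusted p = 0.001396), 1.93-fold, past the adjusted p and just below the fold threshold. With the adjusted p alone 4 of the 10 genes passed, against 35.4% of all genes.

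Pou2f3, the factor that specifies the lineage, was at 1.74, 1.42 and 1.32 CPM in untreated and 1.30, 0.947 and 0.272 CPM in colitic libraries, the last on 4 counts. Its log2 fold change was -0.73 ± 0.51 (adjusted p = 0.3057). Sh2d6 was at 5.98, 7.24 and 6.01 against 2.82, 6.30 and 7.83 CPM (-0.12 ± 0.34, adjusted p = 0.8248). The 3 colitic libraries spanned the untreated range on both sides. Avil was at 5.76, 9.82 and 4.51 against 11.3, 7.81 and 9.74 CPM (0.59 ± 0.30, adjusted p = 0.1514). Gfi1b, with 6, 8 and 13 counts untreated and 6, 12 and 9 colitic, gave -0.21 ± 0.53 (adjusted p = 0.7935). Of the 10 genes, 4 had all colitic values below and 1 all colitic values above the untreated ones, and 49.3% of all genes tested had groups that did not overlap.

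Marker sums of other cell types also differed with DSS. The 12 epithelial markers (Epcam, Cdh1, Krt8 and others) summed to 15362 to 19285 CPM in untreated and 6154 to 10502 CPM in colitic Tmem173fl/fl libraries, and 6 of 12 were called lower with a median log2 fold change of -1.0. Rgs13, Trpm5 and Il17rb were thus lower in the same comparison as these markers. Markers of stroma and nerve were higher in it. The 7 fibroblast markers summed to 1238 to 1457 and 8179 to 10355 CPM, with 7 of 7 called higher, and the 10 enteric neuron and glia markers to 66.0 to 77.0 and 220 to 245 CPM, with 8 of 10 called higher. None of these markers was at 0 in all libraries of a group. Dclk1 and Avil are also known from neurons, and the part of other cell types in their levels was not tested.

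Levels were therefore also set against the epithelium, with the summed counts of the 12 epithelial markers as the library size. On this scale 2 of 10 genes were called higher, Dclk1 and Avil, and 0 lower, where 43.1% of all genes were called higher and 44.7% either way, and the median over all genes was 1.1. The median of the 10 genes was 0.79, and 0.62 without Il25 and Gng13. Dclk1 rose from 106, 159 and 173 to 625, 773 and 400 counts per 100000 epithelial counts (log2 fold change 2.03 ± 0.32, edgeR adjusted p = 9.05e-07). Avil rose from 29.8, 53.8 and 29.4 to 140, 127 and 92.7 (1.67 ± 0.41, adjusted p = 0.000706). Both were called in 6 of 6 fits leaving out 1 library.

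Per epithelial count, the drops of Trpm5 and Il17rb were no longer seen. Trpm5 was at 53.4, 89.3 and 81.5 in untreated and 69.2, 73.1 and 67.4 in colitic libraries (-0.10 ± 0.40, adjusted p = 0.8514), and Il17rb at 26.7, 21.9 and 28.5 against 26.9, 32.3 and 20.7 (0.05 ± 0.47, adjusted p = 0.9405). Rgs13 stayed lower in value, at 11.8, 18.2 and 29.8 against 6.05, 13.8 and 9.08, without passing the test (-1.05 ± 0.54, adjusted p = 0.09844). Sh2d6 was at 31.0, 39.7 and 39.1 against 34.9, 102 and 74.6 (0.94 ± 0.44, adjusted p = 0.06356). It was called with Epcam, Cdh1 and Krt8 alone as the epithelial set, at 1.16.

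**Figure D2:**
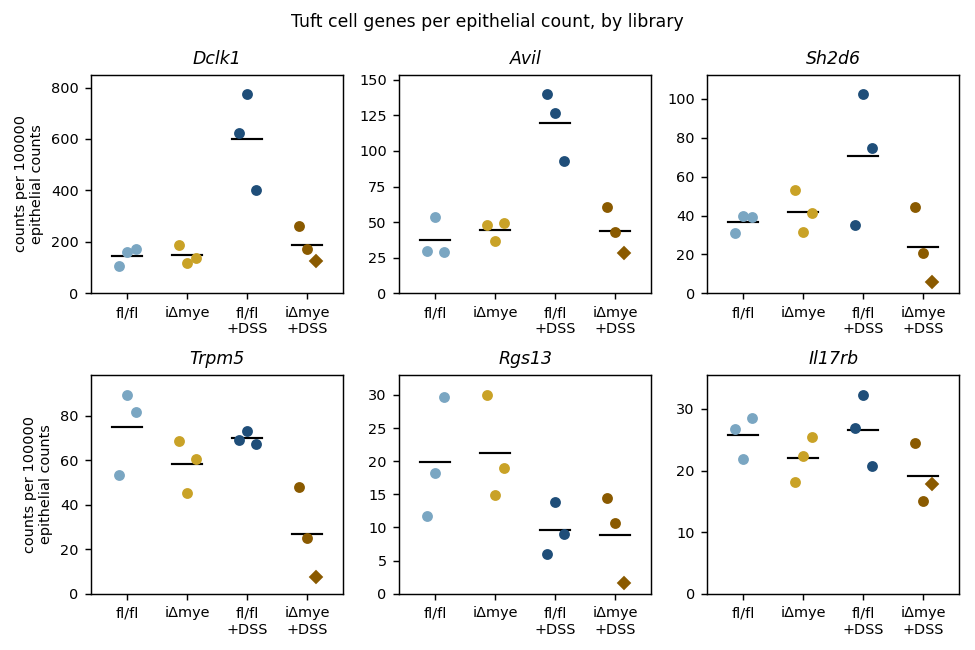
Counts per 100000 epithelial counts (the summed counts of 12 epithelial markers; linear axes from 0) of 6 genes in the 12 libraries, with the group mean as a bar and colitic Tmem173iΔmye replicate 5 as a diamond. Dclk1 and Avil are highest in the 3 colitic Tmem173fl/fl libraries, while Trpm5 and Il17rb of that group overlap the untreated values.

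The second comparison is DSS in Tmem173iΔmye mice. Here 0 of 10 genes were called by edgeR, against 2.08% of all genes, and the values of the 8 more abundant genes lay at or below no change, with a median log2 fold change of -1.33 (-1.21 over the 10 genes and 0.02 over all genes tested). By unadjusted p under 0.05, 4 genes passed (15.6% of all genes did). The same 4 genes, Trpm5, Rgs13, Pou2f3 and Sh2d6, had every colitic library below every untreated one, and 21.5% of all genes had groups apart. DESeq2 called 1 of the 10 genes, Trpm5, and 1137 of all 24102.

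Trpm5 was at 11.2, 8.20 and 11.8 CPM in untreated and 6.13, 3.98 and 1.15 CPM in colitic Tmem173iΔmye libraries (-1.48 ± 0.50, adjusted p = 0.1818 by edgeR and 0.03495 by DESeq2). Rgs13 was at 4.92, 2.69 and 3.73 against 1.85, 1.68 and 0.243 CPM (-1.59 ± 0.61, adjusted p = 0.235). Pou2f3 was at 2.61, 1.14 and 1.5 against 0.784, 0.684 and 0.364 CPM (-1.52 ± 0.53, adjusted p = 0.1978). In all 3 genes replicate 5 was the lowest of the colitic libraries, with 19, 4 and 6 counts. Leaving it out, the log2 fold changes were -1.02 for Trpm5 and -1.07 for Rgs13.

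Sh2d6 was at 8.68, 5.75 and 8.12 CPM in untreated and 5.70, 3.30 and 0.911 CPM in colitic libraries (-1.19 ± 0.53, adjusted p = 0.3174; -0.71 without replicate 5). Dclk1 was at 31.1, 21.6 and 27.1 against 33.5, 27.3 and 19.1 CPM, with a log2 fold change of 0.00 ± 0.25 (adjusted p = 1) and colitic values on both sides of the untreated range. Avil was at 7.83, 6.71 and 9.68 against 7.77, 6.84 and 4.37 CPM (-0.36 ± 0.32, adjusted p = 0.6561; -0.12 without replicate 5). Il17rb was at 2.97, 4.07 and 4.99 against 3.14, 2.36 and 2.73 CPM (-0.55 ± 0.36, adjusted p = 0.511). Gfi1b had 4, 6 and 6 counts untreated and 5, 0 and 0 counts colitic (-1.46 ± 1.2, adjusted p = 0.6169; -0.86 and -0.84 without replicate 2 or 5). A library with 0 counts allows up to 3.

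The epithelial markers summed to 16368 to 19624 CPM in untreated and 12791 to 15787 CPM in colitic Tmem173iΔmye libraries, with a median log2 fold change of -0.39 and 0 of 12 called. Per epithelial count 0 of 10 genes were called, where 3.3% of all genes were. The values were -1.12 ± 0.53 for Trpm5 (adjusted p = 0.2805), -1.27 ± 0.63 for Rgs13 (adjusted p = 0.3005) and 0.32 ± 0.31 for Dclk1 (adjusted p = 0.6231).

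**Figure D3:**
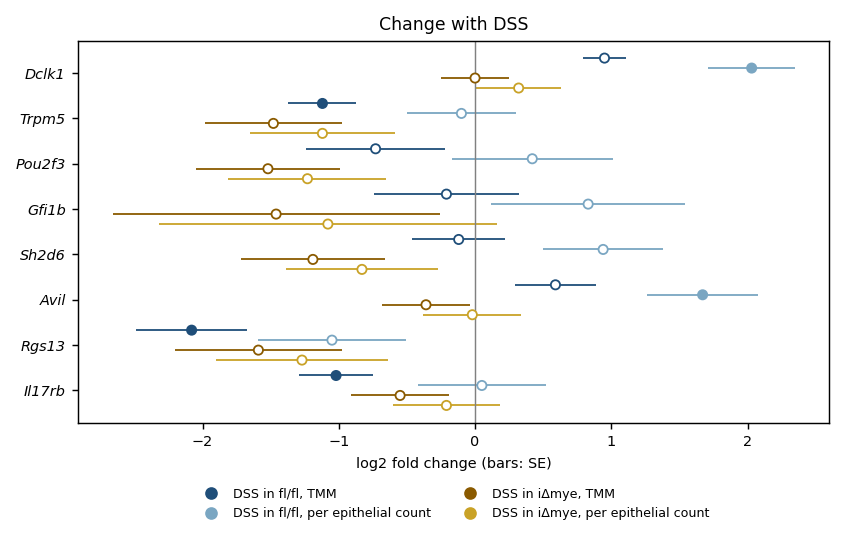
Log2 fold change with DSS (points; bars are SE) of the 8 more abundant genes, in Tmem173fl/fl and Tmem173iΔmye mice, after TMM scaling and per epithelial count. Filled points were called. Trpm5, Rgs13 and Il17rb are filled below 0 after TMM scaling in Tmem173fl/fl mice, and Dclk1 and Avil are filled above 0 per epithelial count.

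Without DSS, the genotypes were compared next. For tuft cell genes 0 of 10 were called (0% of all genes), 0 had an unadjusted p under 0.05 against 2.99% of all genes, and DESeq2 called 0 of the 10 genes. The log2 differences, Tmem173iΔmye minus Tmem173fl/fl, of Dclk1 (0.07 ± 0.19), Trpm5 (-0.32 ± 0.23), Sh2d6 (0.24 ± 0.24), Rgs13 (0.16 ± 0.34), Il17rb (-0.16 ± 0.29), Avil (0.28 ± 0.29) and Pou2f3 (0.24 ± 0.41) had an edgeR adjusted p of 1. Gfi1b was the 1 gene of 10 whose groups did not overlap by CPM, at 0.454, 0.542 and 0.814 against 0.243, 0.359 and 0.361. These values rest on 6, 8 and 13 against 4, 6 and 6 counts (-0.90 ± 0.62, adjusted p = 1). Groups apart were seen in 7.35% of all genes.

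In colitis, the genotype comparison called 0 of 10 genes, against 2.81% of all genes. By unadjusted p under 0.05, 1 gene passed, Dclk1, and 20.2% of all genes did. DESeq2 also called 0 of 10 genes. Dclk1 was at 50.4, 47.6 and 42.0 CPM in colitic Tmem173fl/fl and 33.5, 27.3 and 19.1 CPM in colitic Tmem173iΔmye libraries. The groups did not overlap, and the log2 difference was -0.82 ± 0.23 (edgeR adjusted p = 0.09581; -0.79 and 0.03565 by DESeq2). It was called in 1 of 6 fits leaving out 1 library, at -1.03 without colitic Tmem173iΔmye replicate 1, and was -0.63 without replicate 5.

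Avil also had every colitic Tmem173iΔmye value below every colitic Tmem173fl/fl value, at 7.77, 6.84 and 4.37 against 11.3, 7.81 and 9.74 CPM (-0.61 ± 0.30, adjusted p = 0.2982). Il17rb was apart in the other direction, at 3.14, 2.36 and 2.73 against 2.17, 1.99 and 2.18 CPM (0.37 ± 0.32, adjusted p = 0.5524). These 3 genes compare with 26.8% of all genes whose groups were apart. Trpm5 (-0.61 ± 0.53, adjusted p = 0.5555) and Sh2d6 (-0.78 ± 0.62, adjusted p = 0.5184) were lowest in replicate 5. Without it, their differences were -0.18 and -0.33. Rgs13 gave 0.70 ± 0.69 (adjusted p = 0.6118) and Pou2f3 -0.49 ± 0.63 (adjusted p = 0.7087). For Rgs13 the levels were 1.85, 1.68 and 0.243 against 0.488, 0.852 and 0.953 CPM. Its value in replicate 5 was below every Tmem173fl/fl value, and those in replicates 1 and 2 were above. Gfi1b had 27 counts over the colitic Tmem173fl/fl and 5 over the colitic Tmem173iΔmye libraries (-2.10 ± 1.13, adjusted p = 0.3419). Gfi1b is also known from erythroid and megakaryocyte cells, and 6 of 9 markers of these cells tested were called lower in the same comparison, their list summing to 193 to 363 and 35.0 to 41.6 CPM. Gp1bb alone was at 0 in every library, and the part of these cells in Gfi1b was not tested.

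In the colitic groups the epithelial markers summed to 6154 to 10502 CPM in Tmem173fl/fl and 12791 to 15787 CPM in Tmem173iΔmye mice, with a median log2 difference of 0.80 and 1 of 12 called higher. Per epithelial count, Dclk1 was lower in colitic Tmem173iΔmye mice, at 262, 173 and 124 against 625, 773 and 400 (-1.69 ± 0.37, adjusted p = 0.005913), in 6 of 6 fits leaving out 1 library. Avil was lower, at 60.7, 43.4 and 28.4 against 140, 127 and 92.7 (-1.44 ± 0.44, adjusted p = 0.02642), but in 2 of 6 such fits. These 2 of 10 genes were called lower where 21.8% of all genes were and 22.3% were called either way. The median was -1.43 over the 10 genes and -0.85 over all genes tested. Trpm5 was at 47.9, 25.2 and 7.49 against 69.2, 73.1 and 67.4, apart but not past the test (-1.39 ± 0.55, adjusted p = 0.07172), and Sh2d6 was at 44.6, 20.9 and 5.91 against 34.9, 102 and 74.6 (-1.58 ± 0.61, adjusted p = 0.0657). Without colitic Tmem173iΔmye replicate 1, 5 of the 10 genes were called, and 5975 of all 24102. Without replicate 2 or 5 of that group or replicate 2 of the colitic Tmem173fl/fl group 1 of the 10 was called, and 2513, 3918 and 1186 of all genes. Fibroblast markers, at 8179 to 10355 and 2393 to 3480 CPM in the 2 colitic groups, were called lower in 7 of 7 per epithelial count. Enteric neuron and glia markers, at 220 to 245 and 119 to 171 CPM, were called lower in 6 of 10 per epithelial count, with a median of -1.45. The part of these cells in Dclk1 and Avil was not tested.

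Whether the response to DSS itself differed between genotypes was tested as an interaction over 12 libraries. It called 0 of 10 genes, against 2.55% of all genes, and 1 gene, Dclk1, had an unadjusted p under 0.05, as did 18.1% of all genes. DESeq2 called 0 of 10. The interaction of Dclk1 was -0.87 ± 0.31 (edgeR adjusted p = 0.1518), with a log2 fold change with DSS of 0.95 in Tmem173fl/fl and 0.00 in Tmem173iΔmye mice. That of Avil was -0.87 ± 0.45 (adjusted p = 0.3253), of Sh2d6 -1.01 ± 0.70 (adjusted p = 0.4822), of Trpm5 -0.29 ± 0.60 (adjusted p = 0.8486) and of Rgs13 0.56 ± 0.77 (adjusted p = 0.7509). Without colitic Tmem173iΔmye replicate 1, Dclk1 (-1.07, adjusted p = 0.04187) and Gfi1b (-5.16, adjusted p = 0.04731) were called, the latter against 2 remaining libraries at 0 counts, so its fitted size is no measure of the change. Trpm5, Rgs13 and Il17rb fell in Tmem173fl/fl and were not called in Tmem173iΔmye mice, but a difference between the genotypes was not shown.

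**Figure D4:**
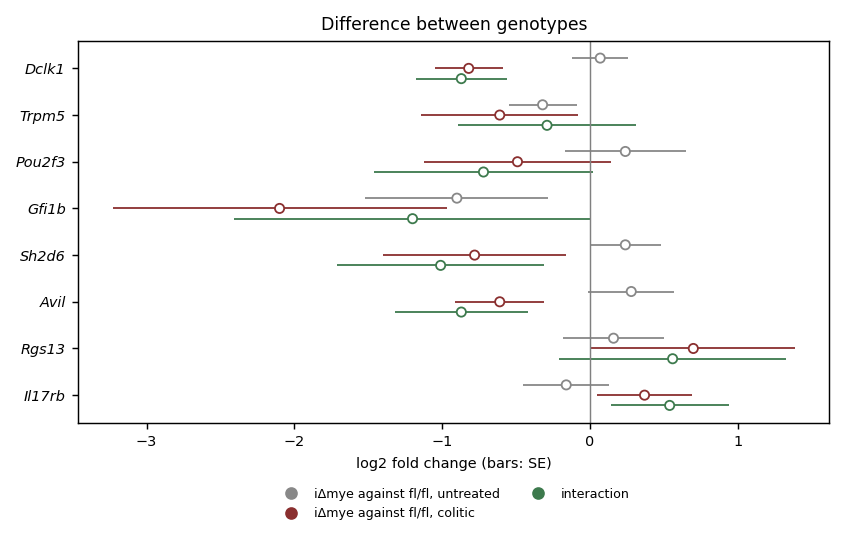
Log2 difference between genotypes (Tmem173iΔmye minus Tmem173fl/fl; points, with SE as bars) of the 8 more abundant genes in untreated and colitic mice, and their interaction. Open points did not pass the test. None is filled, and the colitic difference of Dclk1, -0.82 ± 0.23, lies farthest from 0 in units of its SE.

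The libraries of a group differed among themselves for several of these genes at once. By CPM, colitic Tmem173iΔmye replicate 5 was the lowest of 12 libraries, or tied for lowest, for 6 of the 8 more abundant genes and for 18.6% of all genes tested. Gfi1b was the tie, at 0 counts in replicates 2 and 5. Per epithelial count it was also 6 of 8, with Pou2f3 in place of Dclk1. The 8 genes summed to 28.9 CPM there and to 46.2 to 74.3 CPM in the other 11 libraries. Over deviations from group means of log2(CPM + 0.5), 24 of 28 pairs of the 8 genes had a positive Pearson correlation, with a median r of 0.36. Without replicate 5 the median was 0.14, with 19 of 28 positive. These 12 points share libraries and depth and are given as a description.

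Within groups the highest r among the 8 genes was that of Sh2d6 with Rgs13 (0.85, 0.61 without replicate 5), followed by Trpm5 with Sh2d6 (0.84, then 0.54) and with Rgs13 (0.84, then 0.47). The order rested on replicate 5: without it Trpm5 with Avil was highest (0.67, against 0.74 with it). Dclk1 and Trpm5 reached 0.81 within groups (0.62 without replicate 5) but 0.05 over the 12 libraries with group means left in (-0.50 without replicate 5), where colitic Tmem173fl/fl libraries are high in Dclk1 and low in Trpm5. Il17rb had lower values within groups, with r of 0.03 with Trpm5, 0.01 with Sh2d6, -0.25 with Rgs13 and, at the highest, 0.35 with Gfi1b. Over the 12 libraries with group means left in, it reached 0.61 with Trpm5 and 0.69 with Rgs13 (0.77 and 0.75 without replicate 5). With Dclk1 it was -0.68 and with Avil -0.27 (-0.84 and -0.42 without replicate 5).

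**Figure D5:**
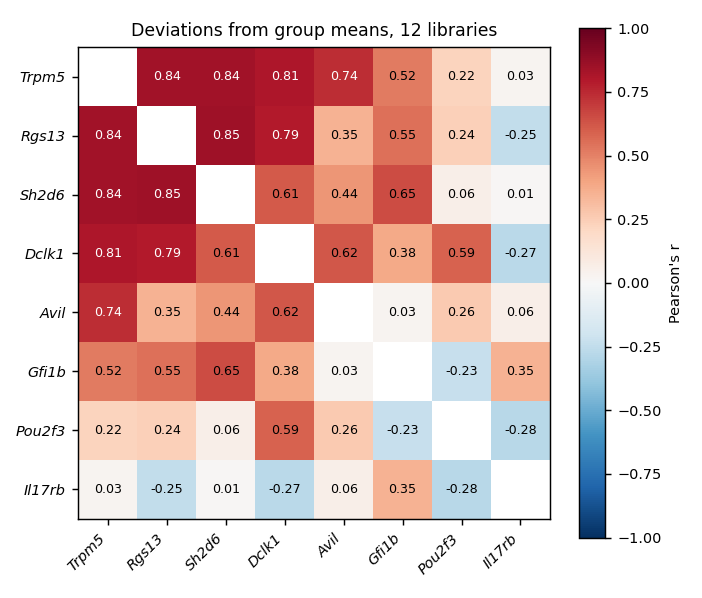
Pearson's r between deviations from group means of log2(CPM + 0.5) over 12 libraries, for the 8 more abundant genes. Each pair among Trpm5, Rgs13, Sh2d6 and Dclk1 has 0.61 to 0.85, and Il17rb has values from -0.28 to 0.35.

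Among other genes with a mean FPKM of at least 0.5, Sh2d7, an adaptor of the family of Sh2d6, had the highest correlation over 12 libraries with the mean z-score of the 10 genes (r = 0.92). It was followed by Rptor (0.91), Trim32 (0.91), Itpr2 (0.91), Etv5 (0.89), Cdk6 (0.89), Snrk (0.89) and Itpkc (0.89). Itpr2, a calcium-release channel, was on the list of taste-type sensing genes. By deviations from group means the 8 highest were Unkl (0.96), Snx29, Gm15775, Cnnm2, Numa1, Dok1, Nfkb1 and Rptor (0.95 each), of which 1 was shared with the first 8. The names depended on the measure: 2 of the first 8 were shared with the 8 highest by Spearman's rho and 2 when Il25 and Gng13 were left out of the score, where Sh2d7 was ranked 3 (0.92). By deviations from group means Sh2d7 was ranked 98 (0.88) with the 10 genes in the score and 258 (0.84) without Il25 and Gng13. Sh2d7 was at 3.41, 7.04 and 3.45, then 6.55, 4.91 and 7.88, then 2.55, 2.51 and 4.36, then 2.35, 2.30 and 0.364 CPM.

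Other genes known from tuft cells were followed in 4 lists. Of 11 taste-type sensing genes 9 were tested, and with DSS in Tmem173fl/fl mice 1 was called higher and 0 lower, with a median log2 fold change of -0.17, where 14.9% of all genes were called higher and 7.61% lower. The one called, Gnb3, a G-protein beta subunit, is below the level set for naming and was singled out after its values were seen (3.27 ± 0.75, adjusted p = 0.007027, mean FPKM 0.208). Of 8 genes of eicosanoid and acetylcholine synthesis 5 were called higher and 1 lower, with a median of 1.40. Alox5ap, which presents arachidonic acid to 5-lipoxygenase, had a log2 fold change of 3.25 ± 0.23 (adjusted p = 6.41e-06), Ptgs1, a cyclooxygenase, of 2.10 ± 0.14 (adjusted p = 5.345e-06), and Ltc4s, the leukotriene C4 synthase, of 1.62 ± 0.56 (adjusted p = 0.04587), called in 2 of 6 fits leaving out 1 library. Hpgd, which degrades prostaglandins, fell (-1.58 ± 0.16, adjusted p = 6.664e-05). Per epithelial count 7 of these 8 genes were called higher and 0 lower, and the lowest log2 fold change was -0.54. On that scale 43.1% of all genes were called higher and 44.7% either way. Alox5ap, Ptgs1 and Ltc4s are also made by myeloid cells, and 7 of 7 neutrophil markers tested were called higher, the list summing to 46.3 to 106 CPM untreated and 427 to 707 CPM colitic, with Mpo at 0 in the untreated libraries. The part of such cells was not tested.

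Of 9 regulators 7 were found by symbol, Pou2af2 and Pou2af3 not, and 2 were called higher and 2 lower, against the same 14.9% and 7.61% of all genes. Ascl2, a crypt stem cell factor, fell (-3.96 ± 0.42, adjusted p = 7.214e-05), as did Sox9 (-1.05 ± 0.22, adjusted p = 0.004958), while Runx1 (1.39 ± 0.14, adjusted p = 6.036e-05) and Sox4 (1.08 ± 0.26, adjusted p = 0.008752) rose. Sox9 and Sox4 were called in 4 of 6 fits leaving out 1 library. Of 18 tested surface, cytoskeleton and signalling genes 6 were called higher and 2 lower, beside the same shares of all genes. Cd300lf, a receptor of tuft and myeloid cells, rose most (3.62 ± 0.29, adjusted p = 1.328e-05), then Nrgn (2.90 ± 0.36, adjusted p = 0.0001984) and the phosphatase Inpp5d (1.24 ± 0.20, adjusted p = 0.001019), and Cd24a fell (-1.24 ± 0.20, adjusted p = 0.001011). Per epithelial count 4 of 7 regulators were called higher and 1 lower. Of the 18 surface, cytoskeleton and signalling genes 11 were called higher and 0 lower, and the lowest log2 fold change was -0.21. On that scale 43.1% of all genes were called higher and 44.7% either way. In Tmem173iΔmye mice, where 2.08% of all genes were called, 2 genes of the 4 lists were. Cd300lf rose (2.36 ± 0.38, adjusted p = 0.01462) and Cd24a fell (-1.43 ± 0.27, adjusted p = 0.02639). They were called in 3 of 6 and 1 of 6 fits leaving out 1 library. Neutrophil markers were called higher in 7 of 7 in Tmem173fl/fl and in 4 of 7 in Tmem173iΔmye mice, and the part of myeloid cells in Cd300lf, Inpp5d and Runx1 was not tested.

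Between colitic genotypes 2 genes of the 4 lists were called, where 2.81% of all genes were, and both were lower in Tmem173iΔmye mice. Alox5ap was at 17.8, 15.3 and 20.6 against 6.84, 6.78 and 4.37 CPM (-1.59 ± 0.27, adjusted p = 0.02503), and Ptgs1 at 125, 113 and 97.1 against 62.6, 49.7 and 32.2 CPM (-1.22 ± 0.25, adjusted p = 0.04222). Both lost the call in 4 of 6 fits that left out 1 library and kept it in 2 of 6, namely those without colitic Tmem173iΔmye replicate 1 or 5. In the same comparison 4 of 7 neutrophil, 6 of 7 fibroblast and 6 of 9 erythroid and megakaryocyte markers were called lower, and their part was not tested.

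The type 2 circuit through which tuft cells act was followed with 21 genes, of which 18 were tested. With DSS in Tmem173fl/fl mice 8 were called higher (14.9% of all genes were) and 0 lower, with a median log2 fold change of 1.2. In the same comparison 7 of 7 fibroblast and 7 of 7 neutrophil markers tested were called higher, with medians of 2.47 and 7.27, and their part in the type 2 genes was not tested. Il1rl1, the receptor of Il33, rose by 5.32 ± 0.57 (adjusted p = 7.794e-05), the alarmin Il33 by 3.55 ± 0.36 (adjusted p = 5.125e-05) and Il7r by 2.45 ± 0.39 (adjusted p = 0.0009485) on the log2 scale. In Tmem173iΔmye mice 2 of 18 were called higher, where 2.08% of all genes were called either way, namely Il1rl1 (2.52 ± 0.42, adjusted p = 0.01687) and Il33 (2.49 ± 0.29, adjusted p = 0.003415). Il33 was called in 4 of 6 and Il1rl1 in 2 of 6 fits leaving out 1 library. The cytokines by which this circuit returns to the epithelium were low: Il13 was at 0 counts in 10 of 12 libraries and at most 0.243 CPM, and Il4 ran from 0.301 to 3.10 CPM with no call (0.42 ± 0.45, adjusted p = 0.5123). Between colitic genotypes 0 of 18 were called, against 2.81% of all genes.

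Rgs13 is also known from germinal centre B cells and mast cells. Markers of the former summed to 320 to 396 CPM in untreated and 337 to 407 CPM in colitic Tmem173fl/fl libraries, and those of the latter to 97.9 to 148 and 151 to 168 CPM. Of 10 markers each, 2 and 4 were called higher and 0 lower, where 14.9% of all genes were called higher and 7.61% lower. The mast cell marker farthest below 0 was Cma1, singled out after its values were seen (-1.77 ± 0.65, adjusted p = 0.0594). The part of these cells in Rgs13 was not tested. Enteroendocrine markers, of another rare epithelial lineage, summed to 230 to 291 and 263 to 404 CPM, with 3 of 12 called higher and 1 lower, beside the same shares of all genes.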

How the data were processed

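Colon RNA was measured in 12 libraries, with groups and replicate numbers from the sample titles. Per the submitters' processing notes, reads were handled with CASAVA 1.8, fastp, HISAT2 2.0.5 and featureCounts 1.5.0-p3 on GRCm38. The authors deposited whole-number counts and FPKM per gene, with Ensembl identifiers. Their comparison columns (DESeq2 1.20.0 fold changes and p-values) and group means were not used.

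Counts were tested with edgeR 4.0.16 (quasi-likelihood, TMM) in R 4.3.3, with only the groups compared in a fit and all 12 libraries for the interaction. Tested were the 24102 genes that reached an FPKM of 0.1 in 3 or more of the 12 libraries, and p-values were adjusted over them by Benjamini-Hochberg. SE is that of the log2 fold change. Fits per epithelial count used the summed counts of 12 epithelial markers as library size. The members and lists were chosen with earlier results of these data known. Named are all 10 genes, up to 4 called genes per other list by absolute fold change with a mean FPKM of at least 0.5, and the 8 most like genes. One gene of the type 2 circuit is not reported here. Cell type marker lists are given by counts and sums. Titles number the libraries but do not say that each is 1 mouse, so p-values measure the spread between these samples. Counting intervals and floors (3 counts) cover counting error only. DESeq2 1.42.0, limma 3.58.1 on log2(FPKM + 0.1) and log2(FPKM + 1), other filters and scaling, a replicate block and leaving out each library were alternatives. The fits were also tested on simulated data, and the outcome is not reported here.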

Additional observations from a re-analysis of the deposited data

Results flagged for a closer look

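For 2 named genes of the other tuft lists the response to DSS differed between the genotypes by the interaction test itself, and for 0 of the 10 tuft cell genes followed here. Alox5ap had an interaction of -2.21 ± 0.38 (SE, log2 scale; edgeR adjusted p = 0.009384), rising by 3.25 in Tmem173fl/fl mice and by 0.96, not past the test, in Tmem173iΔmye mice, and it was called in 12 of 12 fits leaving out 1 library. With only the 9 libraries under 10 CPM of Xist, an alternative chosen after seeing the data, it was -1.93 (adjusted p = 0.05841). Ptgs1 had an interaction of -1.20 ± 0.29 (adjusted p = 0.04765) and was called in 1 of 12 fits leaving out 1 library, where the adjusted p ran from 0.00704 to 0.1121. In the same interaction 5 of 7 fibroblast markers (median -1.37) and 4 of 9 erythroid and megakaryocyte markers (median -2.82) were called lower, where 2.55% of all genes were called either way. Neutrophil markers had a median of -2.54, with 0 of 7 called by edgeR and 3 at an unadjusted p under 0.05. Their part in Alox5ap and Ptgs1 was not tested. Groups of 3 libraries are too small for the test of single outlying libraries.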

How the results depend on the processing

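Of 782 alternative values for the 8 genes with over 5 counts in at least 1 library, 37 changed sign, all for values that were not called. The counts of called genes kept within 1.5 times of the main one except as follows. With DSS in Tmem173fl/fl mice limma with a pseudocount of 1 called 1 in place of 3, and fits without 1 library called 2 to 3. With DSS in Tmem173iΔmye mice DESeq2 called 1 and an unadjusted p with the fold passed 4, against 0. Leaving out 1 library gave 0 to 1 calls between colitic genotypes and 0 to 2 for the interaction. Between colitic genotypes per epithelial count, leaving out 1 library gave 1 to 5. There, Epcam, Cdh1 and Krt8 alone gave 5 against 2 (6445 against 5372 over all genes). An unadjusted p with the fold also passed 5 against 2 there, and an unadjusted p alone passed 9902 of all genes. Genes most like the members: 2 of 8 were shared by Spearman and 2 without Il25 and Gng13, the latter chosen after seeing the data. The cause was not tested.

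Sign changes are given as log2 values, with the range over fits without 1 library. With DSS in Tmem173fl/fl mice Gfi1b ran from -0.38 to 0.08 and Sh2d6 from -0.44 to 0.19. With DSS in Tmem173iΔmye mice Dclk1, at 0.00 in the main comparison, ran from -0.19 to 0.22 and was at 0.01 (DESeq2), 0.02 (FPKM of at least 0.5), 0.00 (limma with a pseudocount of 1), 0.00 (one fit of 12 libraries), 0.01 (RLE scaling) and 0.24 (libraries under 10 CPM of Xist, chosen after seeing the data), where Avil was at 0.04. Between untreated genotypes Dclk1 ran from -0.06 to 0.20, Pou2f3 from -0.16 to 0.47, Rgs13 from -0.07 to 0.44 and Il17rb from -0.35 to 0.02, and Avil was at -0.09 in libraries under 10 CPM of Xist. The interaction of Trpm5 ran from -0.83 to 0.13, the latter without colitic Tmem173iΔmye replicate 5, and was 0.25 in libraries under 10 CPM of Xist. Per epithelial count with DSS in Tmem173fl/fl mice, Trpm5 ran from -0.29 to 0.05 and was at 0.11 with Epcam, Cdh1 and Krt8 alone, and Il17rb ran from -0.11 to 0.20. With DSS in Tmem173iΔmye mice on this scale Dclk1 ran from 0.00 to 0.55 and Avil from -0.32 to 0.22, with 0.06 for Epcam, Cdh1 and Krt8 alone. Between colitic genotypes per epithelial count, Rgs13, at -0.13 in the main comparison, ran from -0.65 to 0.38.

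Replicate numbers are shared by groups, but same-numbered libraries correlated from -0.153 to 0.184 in their deviations, so the numbers were not taken to pair them. With a replicate block 3 of the 10 genes were called with DSS in Tmem173fl/fl mice, as without it, and 0 in the other 4 comparisons. Number 5 of the colitic Tmem173iΔmye libraries has no partner, which leaves untreated Tmem173iΔmye and colitic Tmem173fl/fl replicate 3 without one in the comparisons with that group. Under the block, Dclk1 was at 0.22 and Avil at 0.01 with DSS in Tmem173iΔmye mice, Sh2d6 at 0.02 between colitic genotypes and the interaction of Trpm5 at 0.26. Over all genes, the count of calls moved by over 1.5 times as follows. With DSS in Tmem173fl/fl mice it was 5422, and 2838 by limma with a pseudocount of 1. With DSS in Tmem173iΔmye mice it was 501, against 1137 (DESeq2), 41 and 74 (limma with a pseudocount of 0.1 and 1), 981 (no filter), 981 (one fit of 12 libraries), 1369 (replicate block) and 51 to 1469 without 1 library. Between untreated genotypes it was 0, against 3 (DESeq2), 3 (limma with a pseudocount of 0.1), 68 (no filter), 94 (block) and 0 to 6 without 1 library. Between colitic genotypes it was 678 (198 higher and 480 lower), against 1619 (DESeq2, 664 higher and 955 lower), 71 and 278 (limma), 1220 (no filter), 1492 (one fit) and 27 to 1593 without 1 library. For the interaction it was 614, against 1365 (DESeq2), 201 (libraries under 10 CPM of Xist), 368 (limma with a pseudocount of 0.1), 1228 (no filter) and 267 to 1728 without 1 library. Per epithelial count it ran, without 1 library, from 53 to 2434 (795) with DSS in Tmem173iΔmye mice and from 1186 to 7731 (5372) between colitic genotypes. With DSS in Tmem173iΔmye mice 1256 genes were called with Epcam, Cdh1 and Krt8 alone. Counts of 0 to 5 limit what can be said of Il25 and Gng13.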
